A study of Mus musculus with 15 samples.

Results

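The peroxisome proliferator-activated receptors (PPARs) and the retinoid X receptors (RXRs) were followed at the RNA level in 3T3-L1 cells, a mouse preadipocyte line that turns into fat cells in culture, on day 2 of differentiation. The genes were chosen by name as the whole of both families, Pparg, Ppara, Ppard, Rxra, Rxrb and Rxrg, and are 6 of the 26301 genes counted. A PPAR binds DNA only as a pair with an RXR, on a repeat of a short sequence, the half-site, and switches on nearby genes when a fatty acid or a related lipid occupies it. PPARγ, the product of Pparg, is required for a cell to become a fat cell, and it shares its RXR partners with the vitamin D, thyroid hormone, retinoic acid and liver X receptors. PPARα drives fatty acid burning in liver, and PPARδ is present in most tissues.

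The lines compared differed in JMJD1A, the product of Kdm3a, an enzyme that needs iron and takes methyl groups off lysine 9 of histone H3. There were 15 libraries in 5 groups of 3 replicates. Every line was made by retroviral infection and antibiotic selection and was differentiated with 1.67 μM insulin, 1 μM dexamethasone and 115 μg/mL IBMX from day 0. The shEmpty line carried the control vector and the shJmjd1a line an shRNA against Jmjd1a. The other 3 lines all kept that shRNA and had in addition LacZ (shJmjd1a plus LacZ, the control for the virus), a JMJD1A resistant to the shRNA (shJmjd1a plus WT), or the same construct with a substitution at its iron-binding site (shJmjd1a plus Mut). Nothing in the labels says that the replicates were separate cultures, so the p-values measure the spread between these libraries, which may be technical.

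Total counts ranged from 11437058 to 25523148 per library with a median of 12916162. Kdm3a averaged 174 ± 7.36 CPM (counts scaled to library size, SD, n = 3) in shEmpty and 131 ± 5.75 CPM in shJmjd1a, so that it fell by 25.4% (log2 fold change −0.42 ± 0.048 SE, adjusted p = 2.91e-08). It averaged 119 ± 2.67 CPM with LacZ, 1697 ± 69 CPM with WT and 2213 ± 90.1 CPM with Mut, so the mutant was expressed 1.3-fold above the wild type. Adjusted p-values throughout come from the quasi-likelihood test of edgeR, adjusted by Benjamini and Hochberg's method over all genes tested. The 9 fat cell markers tested of 10 listed were detected in every group, with a summed level of 4903 to 4975 CPM in the shEmpty libraries and 2529 to 4030 CPM in the others. Most of this sum was a single marker, Lpl, which averaged 3896 ± 35.3 CPM in shEmpty and 2344 ± 49.6 CPM in shJmjd1a. The 9 preadipocyte and fibroblast markers summed to 21002 to 21320 CPM in shEmpty and 32375 to 40014 CPM elsewhere. But 2 of them were called lower in the knockdown and 6 higher, where 23.9% of all genes tested were lower and 22.3% higher. The 2 lower were Dlk1 (842 to 502 CPM, and 755 CPM with WT and 389 CPM with Mut) and Ly6a (log2 fold change −0.41). Markers of other cells were near 0, with at most 5.56 CPM for 7 macrophage genes, 1.04 CPM for 5 endothelial genes, and no counts of the muscle genes Myod1, Myog and Ckm. In bulk RNA, fewer cells that had begun to differentiate and less receptor RNA per cell cannot be told apart.

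The genomic start of each receptor gene is where the DNA context matters, since Pparg RNA can begin at separate promoters. In the GENCODE annotation of NCBIM37, the assembly of mm9, Pparg (Entrez Gene 19016) spans chr6:115311239-115440419 on the plus strand. One transcript, which starts at 115311239, has a coding region of 475 codons and is of the PPARγ1 type. The other, which starts at 115372084, has 505 codons and is of the PPARγ2 type, with extra residues at the front of the protein. RefSeq lists 3 Pparg starts on GRCm38.p6, and each RefSeq sequence matched NCBIM37 exactly once. The first RefSeq start lies 77 bases from the start of the 475-codon transcript, the second lies 1128 bases from it, inside its first intron, and the third is the start of the 505-codon transcript. The counts join all starts into 1 value per gene, so none of the values below belongs to 1 start. The 250 bases before each Pparg start are shown because Pparg is the receptor gene the results turn on and its starts differ in which short motifs they hold, with the region before the second Rxra start beside them because it holds an imperfect repeat. Capitals mark AGGTCA on either strand (TGACCT on the other), TTGCNNAA on either strand, and, in Rxra, an imperfect repeat of AGGTCA with 1 base between.
Pparg start 1, chr6:115310912-115311161: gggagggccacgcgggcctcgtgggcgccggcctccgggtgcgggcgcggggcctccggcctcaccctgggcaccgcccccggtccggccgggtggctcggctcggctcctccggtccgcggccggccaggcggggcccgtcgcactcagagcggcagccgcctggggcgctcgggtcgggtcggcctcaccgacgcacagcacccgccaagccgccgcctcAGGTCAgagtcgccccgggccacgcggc
Pparg start 2, chr6:115312117-115312366: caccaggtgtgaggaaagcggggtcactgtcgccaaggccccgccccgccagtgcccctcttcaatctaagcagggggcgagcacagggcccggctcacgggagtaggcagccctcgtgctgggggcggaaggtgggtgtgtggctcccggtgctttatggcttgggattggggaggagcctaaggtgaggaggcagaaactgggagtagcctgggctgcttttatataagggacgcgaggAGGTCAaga
Pparg start 3, chr6:115371834-115372083: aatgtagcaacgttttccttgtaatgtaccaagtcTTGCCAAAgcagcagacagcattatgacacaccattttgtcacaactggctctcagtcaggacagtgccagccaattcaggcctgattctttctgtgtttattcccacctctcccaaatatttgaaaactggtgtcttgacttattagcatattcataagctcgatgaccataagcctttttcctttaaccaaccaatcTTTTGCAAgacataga
Rxra start 2, chr2:27564562-27564811: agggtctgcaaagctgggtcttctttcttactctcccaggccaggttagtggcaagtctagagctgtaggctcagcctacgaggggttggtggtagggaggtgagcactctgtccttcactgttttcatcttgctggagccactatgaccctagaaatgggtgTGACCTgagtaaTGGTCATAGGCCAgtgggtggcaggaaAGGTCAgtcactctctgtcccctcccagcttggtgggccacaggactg

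The regions before the Pparg starts differed in base composition. The first was 82.4% G and C with 38 CpG pairs, the second 63.6% with 12 and the third 40.8% with 2, beside a median of 52.4% and 6 CpG pairs over all 32851 RefSeq promoter regions of 250 bases. The first and second each held 1 AGGTCA, which began 28 and 9 bases before the start. The third held no AGGTCA and 2 matches to TTGCNNAA, 1 on each strand, which began 215 and 16 bases before the start. AGGTCA was in 14% of all these regions and TTGCNNAA in 9.56%. A repeat of AGGTCA with 1 base between and at most 2 mismatches in its 12 letters, the arrangement a PPAR and RXR pair reads, was in 3.24% of all regions and before none of the Pparg starts. The second Rxra start held 1 such repeat with 2 mismatches, which began 75 bases before the start, and 2 AGGTCA copies at 87 and 48 bases. A match is only a run of letters and says nothing about binding in these cells.

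Pparg was the receptor gene that moved in every comparison. Its level was 120, 122 and 126 CPM in the shEmpty libraries and 68.2, 63.5 and 68.7 CPM in the shJmjd1a libraries. It was 76.1, 70.1 and 72.2 CPM with LacZ, 95.3, 97.9 and 88.1 CPM with WT, and 50.6, 55.3 and 50.5 CPM with Mut. No shEmpty library overlapped any other group, the WT libraries lay between shEmpty and all remaining libraries, and the Mut libraries were the lowest of the 15. The raw counts behind these levels ran from 584 to 2260 per library. Per kilobase of exon, the mean level was 61.8 RPKM in shEmpty, 33.7 in shJmjd1a, 36.7 with LacZ, 47.3 with WT and 26.3 with Mut.

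**Figure D1:**
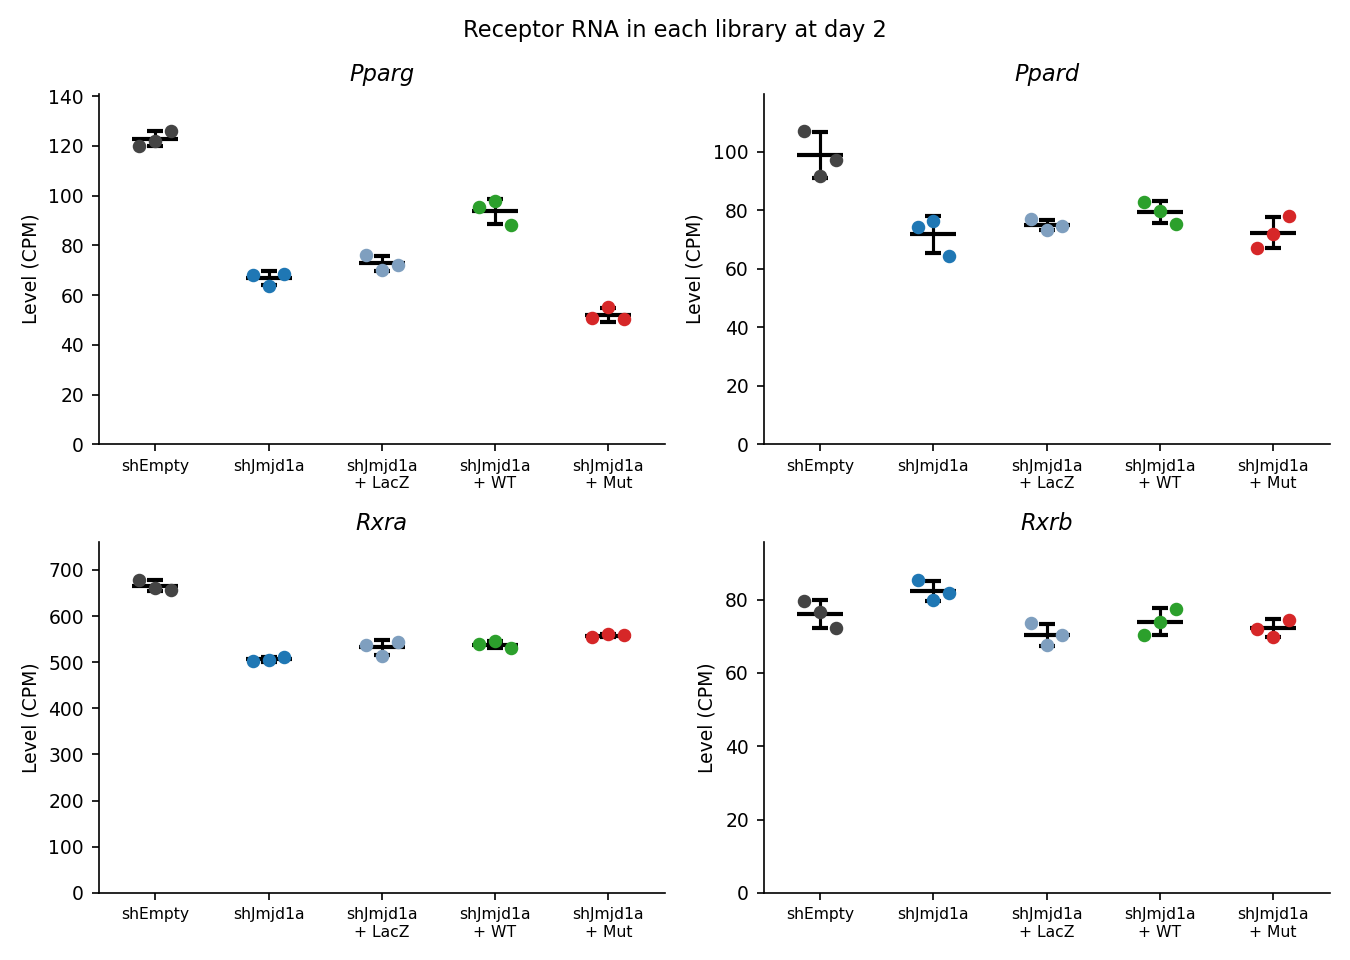
Level of the 4 receptor genes with counts to test, in CPM on a linear axis from 0, for each of the 15 libraries (points) with the mean (long bar) and SD (whiskers) of the 3 replicates of each group. Pparg falls into a stepwise order with shEmpty at 120 to 126 CPM and Mut at 50.5 to 55.3 CPM, Ppard and Rxra stand highest in shEmpty alone, and Rxrb differs little between groups.

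Pparg fell by 46% in shJmjd1a against shEmpty (log2 fold change −0.89 ± 0.054 SE, 95% interval −1 to −0.78, adjusted p = 6.81e-14). Of the 4 receptor genes tested, 3 were called lower and 0 higher in this comparison, where 23.9% of the 12272 genes tested were called lower and 22.3% higher, and where the groups of 53% of genes did not overlap. Only 2.94% of the genes tested had a lower log2 fold change than Pparg. In each of the 4 comparisons where edgeR called 0 receptor genes in a direction, DESeq2 also called 0, and 0 passed at an unadjusted p under 0.05.

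Among the rescue lines, Pparg rose by 27.9% with WT over LacZ (0.36 ± 0.056, 95% interval 0.24 to 0.47, adjusted p = 7.62e-06). It was the 1 receptor gene called higher of the 4, and 0 were called lower, against 4.98% and 4.52% of the 12557 genes tested. Groups did not overlap in 22.9% of genes. With Mut against WT it fell by 44.1% (−0.84 ± 0.061, 95% interval −0.96 to −0.72, adjusted p = 2.96e-15), the 1 receptor gene called lower, where 11.7% of genes were lower, 12.1% higher and 37.1% had groups that did not overlap. With Mut against LacZ it fell by 28.5% (−0.48 ± 0.063, 95% interval −0.61 to −0.36, adjusted p = 2.46e-07), again the 1 receptor gene called lower, beside 4.46% of genes lower, 4.78% higher and 25.1% without overlap. These 3 comparisons share libraries and are not independent of each other.

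With all 15 libraries in 1 fit, the order of Pparg was shEmpty, WT, LacZ, shJmjd1a and Mut. The WT lines stayed below shEmpty (0.40 ± 0.052 higher in shEmpty, adjusted p = 1.35e-08), in a comparison where 22.8% of the genes were called lower in WT and 22.8% higher. WT was above LacZ (0.36, adjusted p = 3.1e-06). LacZ and shJmjd1a, which both carry the shRNA with no added JMJD1A, did not differ past the threshold (0.13, 95% interval 0.01 to 0.24, adjusted p = 0.229). Mut lay below shJmjd1a by 0.35 ± 0.063 (adjusted p = 6e-05), where 3.93% of genes were lower in Mut and 5.4% higher. Against shEmpty, Mut was lower by 1.23 on the log2 scale, given as −1.23 ± 0.058 (adjusted p = 2.41e-23, with 23.8% of genes lower and 25.1% higher). The labels do not say whether the knockdown and rescue lines were grown and sequenced together, so a difference between these 2 sets of lines and a difference in the making of the libraries cannot be told apart.

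Ppard, the more widely expressed relative of Pparg (Entrez Gene 19015, chr17:28369699-28438414), moved with the knockdown and not with the rescue. Its level was 107, 91.8 and 97 CPM in shEmpty and 74.4, 76.3 and 64.4 CPM in shJmjd1a, with no overlap. It was 76.9, 73.2 and 74.6 CPM with LacZ, 82.7, 79.8 and 75.4 CPM with WT and 67.2, 71.8 and 77.9 CPM with Mut, and these groups overlapped. Ppard fell by 27.9% in the knockdown (−0.47 ± 0.066, adjusted p = 1.16e-06). It did not differ past the threshold between WT and LacZ (0.08, 95% interval −0.04 to 0.19, adjusted p = 0.52) or between Mut and LacZ (−0.06, 95% interval −0.18 to 0.06, adjusted p = 0.638). Between Mut and WT the value was −0.13 (95% interval −0.25 to −0.01, adjusted p = 0.0968), and without Mut replicate 3 it was −0.19 with an adjusted p of 0.0346.

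In the order of the 5 groups, Ppard in shEmpty was above the next group, WT, by 0.32 ± 0.060 (adjusted p = 1.83e-05). The neighbours below it, WT and LacZ, LacZ and Mut, and Mut and shJmjd1a, were not separated (adjusted p = 0.554, 0.696 and 0.953).

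Ppara, the liver-type member (Entrez Gene 19013, chr15:85565413-85633249), was close to absent from the counts. There were 5 counts in 3 of the 15 libraries, 1 in shEmpty replicate 3, 1 in WT replicate 1 and 3 in WT replicate 3, the deepest library. Pooled over all libraries this is 0.024 CPM (95% exact Poisson interval 0.00778 to 0.0559, which covers counting error only). Ppara did not pass the filter on low counts, and no difference between groups was detectable at this depth.

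Rxra, the main DNA-binding partner of the PPARs in most tissues (Entrez Gene 20181, chr2:27531960-27618477), was the most abundant of the 6 per length. It reached 679, 661 and 657 CPM in shEmpty, or 122 RPKM on average, and 502, 505 and 512 CPM in shJmjd1a, or 92.7 RPKM. It stood at 538, 514 and 543 CPM with LacZ, 540, 545 and 530 CPM with WT and 554, 560 and 558 CPM with Mut. Every shEmpty library was above every other library, and the Mut libraries were above all libraries with the shRNA in the other 3 groups. Rxra fell by 24.5% in the knockdown (−0.41 ± 0.037, adjusted p = 3.28e-10).

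In the rescue lines, Rxra did not differ past the threshold in any of the 3 comparisons. The log2 fold change was 0.02 for WT against LacZ (95% interval −0.05 to 0.09, adjusted p = 0.852), 0.05 for Mut against WT (−0.02 to 0.12, adjusted p = 0.371) and 0.06 for Mut against LacZ (−0.01 to 0.13, adjusted p = 0.296). The upper ends of these intervals are far below the 0.41 that was lost in the knockdown. In the fit of 15 libraries, Rxra in Mut was next below shEmpty (0.26 ± 0.034 higher in shEmpty, adjusted p = 1.7e-08), and the steps from Mut to WT, LacZ and shJmjd1a were not separated one by one (adjusted p = 0.307, 0.847 and 0.259). The ends of that run were separated, with Mut above shJmjd1a by 0.14 ± 0.035 (adjusted p = 0.00512).

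Rxrb, a broadly expressed RXR (Entrez Gene 20182, chr17:34168757-34175338), was the receptor gene of this set that the knockdown did not lower. Its level was 79.7, 76.7 and 72.2 CPM in shEmpty and 85.5, 79.9 and 81.8 CPM in shJmjd1a. It was 73.6, 67.7 and 70.3 CPM with LacZ, 70.3, 74 and 77.6 CPM with WT and 72.1, 69.8 and 74.6 CPM with Mut. The lowest shJmjd1a library was next to the highest shEmpty library, the rescue groups overlapped, and the knockdown value of 0.11 (95% interval −0.01 to 0.22, adjusted p = 0.142) did not pass the threshold. The rescue comparisons gave 0.08, −0.05 and 0.03, with adjusted p-values of 0.515, 0.601 and 0.852. In the fit of 15 libraries, Rxrb was lower in LacZ than in shJmjd1a by 0.22 on the log2 scale (−0.22 ± 0.058, adjusted p = 0.0091), where 3.36% of genes were lower in LacZ and 3.62% higher, and lower in Mut than in shJmjd1a (−0.19 ± 0.058, adjusted p = 0.0263).

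Rxrg, the RXR known mainly from muscle and brain (Entrez Gene 20183, chr1:169528515-169569754), had 0 counts in all 15 libraries, which allows up to 0.0144 CPM over the pooled libraries. A 0 in these files may also come from the counting, since Hmgcs1, which makes a precursor of cholesterol in most growing cells, was listed at 0 in every library too. None of the 6 receptor genes shares exon bases with another annotated gene on either strand.

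**Figure D2:**
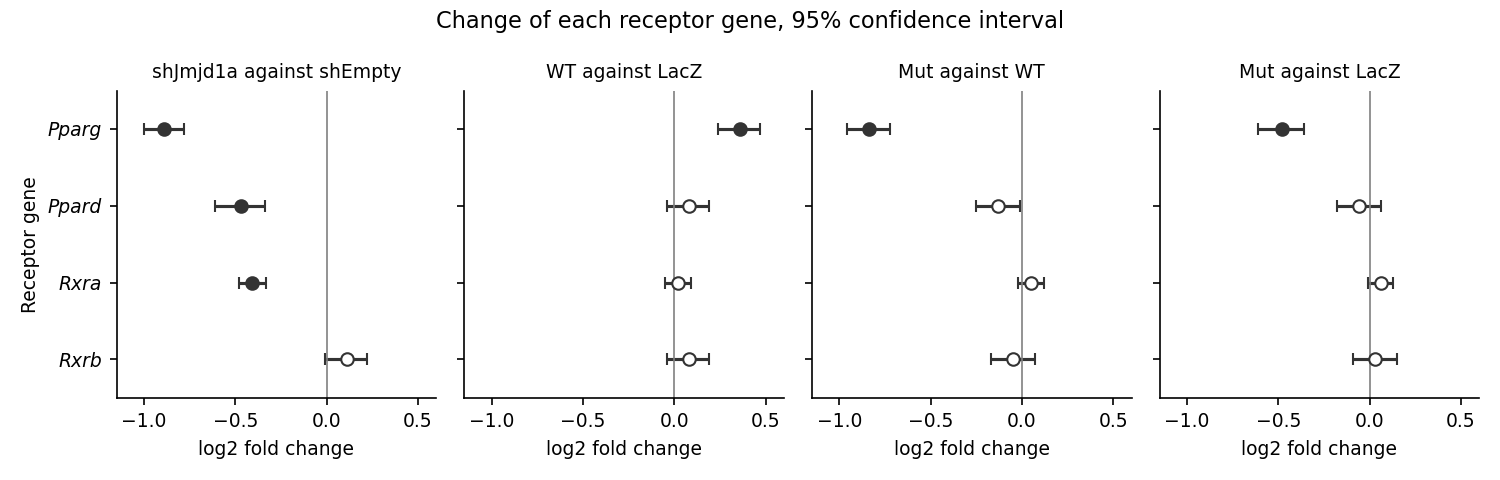
Log2 fold change (x axis, no unit) of Pparg, Ppard, Rxra and Rxrb in 4 comparisons, with 95% confidence intervals as bars; filled points have an adjusted p under 0.05 and open points do not. Pparg is filled in all 4 panels, at −0.89, 0.36, −0.84 and −0.48, while Ppard and Rxra are filled in the knockdown panel alone.

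The makeup of each receptor family followed from these changes. Pparg made up 72.3%, 75.7% and 75.1% of the PPAR RNA per length in shEmpty, and 68.1%, 66% and 71.3% in shJmjd1a. The mean was 74.4% ± 1.82 against 68.5% ± 2.68 (SD, n = 3). With LacZ the share was 69.4% ± 0.369, with WT 73.4% ± 0.663 and with Mut 62.7% ± 2.22. The differences were −5.88 percentage points for the knockdown, 3.97 for WT against LacZ, −10.6 for Mut against WT and −6.65 for Mut against LacZ. In none of the 4 comparisons did the groups overlap, and each had an exact two-sided permutation p of 0.1, the smallest that 3 against 3 can give. Nearly all of the remaining PPAR RNA was Ppard, and Ppara was at most 0.0502% in any library.

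Rxra made up 85.5% ± 0.439 of the RXR RNA per length in shEmpty and 80.6% ± 0.622 in shJmjd1a, a difference of −4.93 percentage points without overlap (exact permutation p = 0.1). The share was 83.6% ± 0.394 with LacZ, 83.1% ± 0.836 with WT and 83.9% ± 0.475 with Mut. These 3 groups overlapped (exact permutation p = 0.6, 0.2 and 0.5). Rxrb was the rest.

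**Figure D3:**
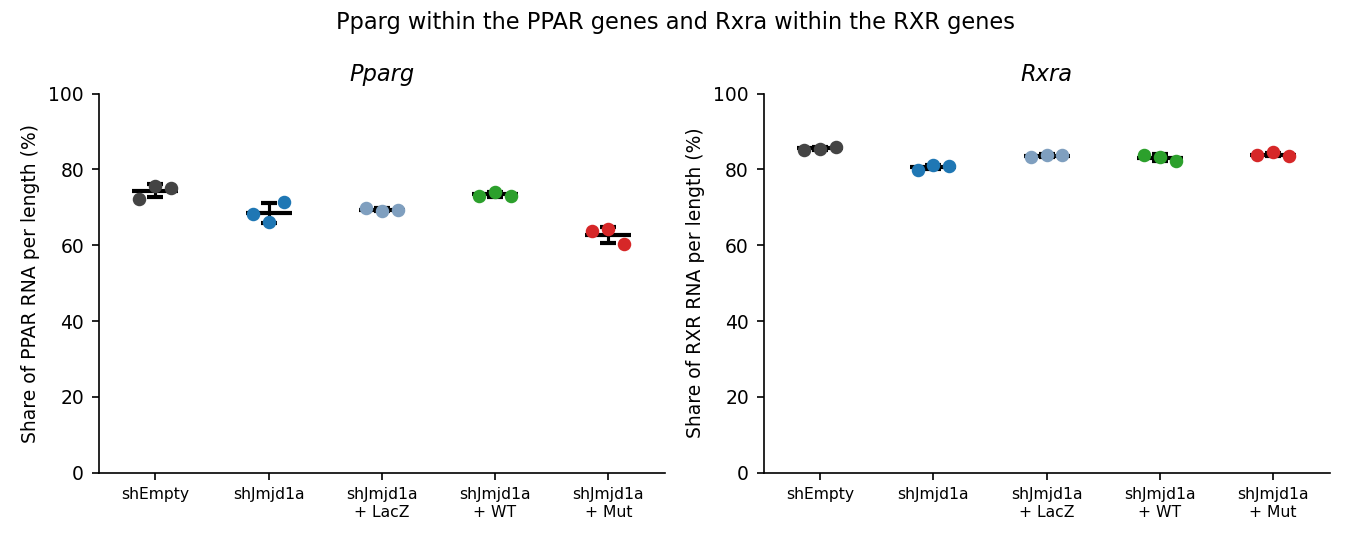
Share of Pparg in the summed RNA of the 3 PPAR genes and of Rxra in the summed RNA of the 3 RXR genes, in percent of counts per kilobase of exon, for each library (points) with mean and SD of 3 replicates. Pparg ranges from 60.2% in a Mut library to 75.7% in a shEmpty library, and Rxra stays between 79.9% and 86%.

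Set against its partner, Rxra RNA per length exceeded Pparg RNA 1.97 ± 0.079 times in shEmpty, 2.76 ± 0.117 times in shJmjd1a, 2.65 ± 0.0826 times with LacZ, 2.09 ± 0.086 times with WT and 3.89 ± 0.186 times with Mut (SD, n = 3). The WT libraries ranged from 2.02 to 2.18 and the shEmpty libraries from 1.9 to 2.06, so these groups overlapped. Pparg exceeded Ppard 2.91 ± 0.268 times in shEmpty and 1.69 ± 0.155 times with Mut. Lengths are from the annotation, and with the longest transcript in place of all exons the last pair becomes 2.16 and 1.25. The ratios compare RNA per length and say nothing of protein.

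Of the genes listed here as PPAR targets, those that were called moved mostly in the direction of Pparg. Whether each listed gene is a PPAR target in these cells was not tested. The lists hold 71 genes, of which 40 could be tested in the knockdown and 42 among the rescue lines, and they were chosen with earlier results of these data known. In shJmjd1a, 23 were lower and 6 higher, with a median log2 fold change of −0.44 against −0.00 over all genes, of which 23.9% were lower and 22.3% higher. With WT over LacZ, 0 were lower and 19 higher (median 0.17), beside 4.52% and 4.98% of all genes. With Mut against WT, 21 were lower and 3 higher (median −0.28), beside 11.7% and 12.1%. With Mut against LacZ, 14 were lower and 2 higher (median −0.11), beside 4.46% and 4.78%. Of the 42 tested, 23 were not called with WT over LacZ and 26 with Mut against LacZ. DESeq2 too called 0 targets lower with WT, 2 were lower at an unadjusted p under 0.05, and without the filter on low counts 1 was called lower.

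The targets for fatty acid uptake and activation bring fatty acids into the cell and prime them. Of 12 tested, 8 were lower and 1 higher in the knockdown, beside 23.9% and 22.3% of all genes. With WT over LacZ 0 were lower and 6 higher, beside 4.52% and 4.98%. Fabp4, the fatty acid carrier of fat cells, averaged 553 ± 17.8 CPM in shEmpty, 152 ± 14 in shJmjd1a, 194 ± 7.88 with LacZ, 463 ± 30.9 with WT and 89.6 ± 6.78 with Mut. Its log2 fold change was −1.87 ± 0.051 in the knockdown (adjusted p = 1.63e-20), 1.25 ± 0.046 with WT (4.3e-23) and −2.37 ± 0.051 for Mut against WT (1.38e-31). Fabp4 thus has the group order of Pparg with a wider range. Acsl1, which activates long fatty acids, ran from 872 ± 20.2 CPM in shEmpty to 225 ± 6.29 in shJmjd1a, 511 ± 39 with WT and 189 ± 7.23 with Mut. Cd36, a fatty acid uptake receptor, differed in order: it was 52.3 ± 1.49 CPM in shEmpty and 93.9 ± 8.42 with WT, with 34.5 ± 2.48 in shJmjd1a, 66.8 ± 2.47 with LacZ and 32 ± 2.03 with Mut, so that LacZ, which carries the same shRNA as shJmjd1a, stood above shEmpty. Acsl3, which activates fatty acids at lipid droplets, was the member called higher in the knockdown (0.45 ± 0.111, adjusted p = 0.00136). Mut was below WT in 7 of the 12 and below LacZ in 7, with 0 above, also at an unadjusted p under 0.05 and in DESeq2. Over all genes, 11.7% were lower and 12.1% higher with Mut against WT, and 4.46% and 4.78% with Mut against LacZ.

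The storage and adipokine targets had 10 of 14 lower and 1 higher in the knockdown, beside 23.9% and 22.3% of all genes. Adipoq, the adiponectin gene, averaged 52.4 ± 4.71 CPM in shEmpty and 5.18 ± 0.272 in shJmjd1a (−3.35 ± 0.112, adjusted p = 1.18e-19), 8.68 ± 1.92 with LacZ, 21.3 ± 2.04 with WT and 3.63 ± 0.478 with Mut. Cidec, which helps lipid droplets grow, was 165 ± 9.81 CPM in shEmpty, 27.9 ± 1.26 in shJmjd1a, 29.5 ± 1.82 with LacZ, 78.3 ± 3.47 with WT and 16.2 ± 1.29 with Mut. Plin1, a coat protein of lipid droplets, was 178 ± 2.9 CPM in shEmpty and 34.8 ± 2.23 in shJmjd1a, and it was lower with Mut than with LacZ (−1.17 ± 0.082, adjusted p = 5.87e-15). Of the 16 tested in the rescue set, 8 were higher with WT over LacZ and 0 lower, beside 4.98% and 4.52% of all genes. With Mut against WT 8 were lower and 1 higher, beside 11.7% and 12.1%. With Mut against LacZ 6 were lower and 0 higher, beside 4.46% and 4.78%. Fads2, a fatty acid desaturase, was the one higher with Mut than with WT (0.36 ± 0.082, adjusted p = 0.000733). Pck2, a mitochondrial enzyme on the path from pyruvate to glucose and glycerol, was the one higher in the knockdown (0.89 ± 0.057, adjusted p = 1.87e-13).

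The oxidation and ketone body targets had 4 of 12 lower and 4 higher in the knockdown, where 23.9% of all genes were lower and 22.3% higher. Acadm, a dehydrogenase of medium-chain fatty acids, fell (−0.98 ± 0.047, adjusted p = 4.32e-16). Pdk4, which holds back glucose oxidation, rose (0.70 ± 0.047, adjusted p = 6.5e-13), as did Cpt1c, a carnitine palmitoyltransferase relative (0.52 ± 0.085, adjusted p = 9.91e-06). With WT over LacZ 3 were higher and 0 lower, beside 4.98% and 4.52% of all genes. With Mut against WT 4 were lower and 2 higher, beside 11.7% and 12.1%. With Mut against LacZ 1 was lower and 1 higher, beside 4.46% and 4.78%. Of the 9 targets for cholesterol and lipoproteins 2 could be tested. Pltp, which transfers phospholipids between lipoproteins, rose with WT (0.68 ± 0.091, adjusted p = 2.36e-07). Pltp was lower with Mut than with WT (−0.31, adjusted p = 0.00744) but was not called in the knockdown (−0.15, adjusted p = 0.287). Unlike Pparg, it was higher with Mut than with LacZ (0.37, adjusted p = 0.0124). Without Mut replicate 2 that value was 0.31 with an adjusted p of 0.0952. Nr1h3, which encodes the liver X receptor LXRα and is itself an RXR partner, fell in the knockdown (−1.23 ± 0.144, adjusted p = 4.65e-08). The fat cell markers, many of which are in these lists too, moved alongside. Of 9 tested, 9 were lower in the knockdown and 9 higher with WT over LacZ. With Mut 9 were lower against WT and 7 against LacZ. The shares of all genes given above for the oxidation list are those of the same comparisons. The part of these markers in the target counts was not tested.

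**Figure D4:**
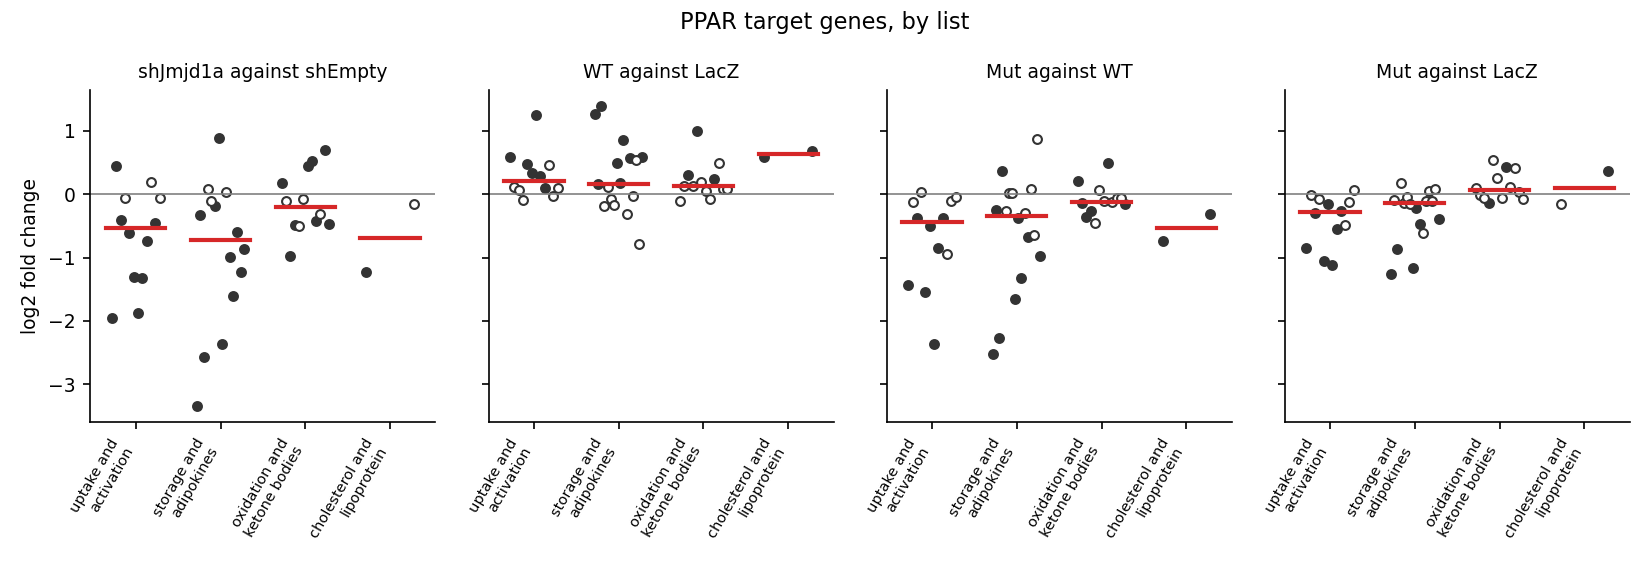
Log2 fold change (y axis, no unit) of the PPAR target genes tested, 1 point per gene, in 4 lists and 4 comparisons; filled points have an adjusted p under 0.05, open points do not, and red bars are list medians. Uptake and storage genes lie mostly below 0 in the knockdown (medians −0.53 and −0.73) and above 0 with WT (0.21 and 0.17), while the oxidation list is spread over both sides in the knockdown (−0.20).

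Of 13 listed receptors that compete with the PPARs for RXR, 8 were tested. In the knockdown 3 were lower, Nr1h3, Nr1h2 (−0.24) and Rara (−0.14), and 5 higher (median 0.46), where 23.9% of all genes were lower and 22.3% higher. Vdr, the vitamin D receptor, rose from 62.9 ± 3.27 to 117 ± 1.97 CPM (0.89 ± 0.055, adjusted p = 1.17e-13) and was 108 ± 3.57 CPM with LacZ, 120 ± 1.91 with WT and 129 ± 6.91 with Mut. Nr4a2, an orphan receptor that pairs with RXR, rose from 3.35 ± 0.606 to 10.1 ± 1.45 CPM (1.55 ± 0.186, adjusted p = 6.65e-08) and was between 10.1 and 10.3 CPM in all 3 rescue groups. Thra, a thyroid hormone receptor, fell with WT against LacZ (−0.21 ± 0.043, adjusted p = 0.000408) and was higher with Mut than with WT (0.28 ± 0.044, adjusted p = 2.63e-06). Nr1h3 had group means in the order of Pparg, at 15.8 CPM in shEmpty, 10.6 with WT, 6.98 with LacZ, 6.82 in shJmjd1a and 6.25 with Mut. The low end was not resolved, since Mut and LacZ did not differ past the threshold (−0.16 ± 0.177, adjusted p = 0.674). Nr1h3 was higher with WT than with LacZ (0.58 ± 0.147, adjusted p = 0.00609) and lower with Mut than with WT (−0.74 ± 0.156, adjusted p = 0.000322). Without LacZ replicate 3 the WT value for Nr1h3 was 0.48 with an adjusted p of 0.0682. In total 2 partners were lower and 1 higher with WT, beside 4.52% and 4.98% of all genes. With Mut 1 was lower and 3 higher against WT, beside 11.7% and 12.1%. Against LacZ 0 were lower and 3 higher with Mut, beside 4.46% and 4.78%.

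Coregulators, the proteins that receptors recruit to open or close chromatin, had 5 of 22 lower and 6 higher in the knockdown, shares close to the 23.9% and 22.3% of all genes, and their median was 0.03. Ppargc1b, a coactivator of mitochondrial genes, fell from 11.8 ± 0.504 to 3.26 ± 0.637 CPM (−1.85 ± 0.174, adjusted p = 7.71e-10). Ncoa1, a histone acetyltransferase coactivator, fell from 100 ± 3.83 to 65.3 ± 0.86 CPM (−0.63 ± 0.056, adjusted p = 2.01e-10) and was lower with Mut than with WT (−0.42 ± 0.061, adjusted p = 6.09e-07). Its relative Ncoa3 went the other way, up in the knockdown (0.41 ± 0.062, adjusted p = 3.39e-06) and with Mut against WT (0.37 ± 0.059, adjusted p = 3.38e-06). Helz2, a helicase that binds PPARs, rose in the knockdown (0.70 ± 0.075, adjusted p = 1.8e-08). The rescue counts were 2 lower and 2 higher with WT, 4 and 2 with Mut against WT, and 5 and 1 with Mut against LacZ. The shares of all genes were 4.52% and 4.98%, 11.7% and 12.1%, and 4.46% and 4.78% in the same order.

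Of 28 regulators of Pparg, all were tested. Of 15 activators, 4 were lower and 3 higher in the knockdown, beside 23.9% and 22.3% of all genes. Cebpa, whose protein C/EBPα and PPARγ maintain each other's expression, had the order of Pparg: 190 ± 7.08 CPM in shEmpty, 75.4 ± 7.91 in shJmjd1a, 97.5 ± 4.33 with LacZ, 171 ± 4.89 with WT and 47.3 ± 4.63 with Mut. It fell in the knockdown (−1.35 ± 0.059, adjusted p = 1.34e-16) and was lower with Mut than with WT (−1.86 ± 0.058, adjusted p = 2.51e-28) and with LacZ (−1.05 ± 0.061, adjusted p = 1.19e-17). Srebf1, a lipid synthesis factor, fell in the knockdown (−0.66 ± 0.045, adjusted p = 1.1e-12), while Klf4, an early activator, rose (0.81 ± 0.077, adjusted p = 8.92e-10). Zfp423, a factor that commits preadipocytes, did not follow Pparg: it was 9.35 ± 0.673 CPM in shEmpty, 13.8 ± 1.97 in shJmjd1a, 14.5 ± 1.74 with LacZ, 25.9 ± 1.46 with WT and 13 ± 0.534 with Mut.

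Of 9 genes listed as repressors of Pparg or of fat cell formation, 0 were lower and 6 higher in the knockdown. With WT over LacZ 2 were lower and 0 higher. With Mut 0 were lower and 5 higher against WT, and 0 were lower and 1 higher against LacZ. Over all genes, 22.3% were higher in the knockdown and 12.1% with Mut against WT, and 4.52% were lower with WT. DESeq2 and an unadjusted p under 0.05 gave the same 0 counts. Ddit3, an inhibitor of C/EBP factors, rose in the knockdown (0.88 ± 0.080, adjusted p = 3.2e-10). Id2, an inhibitor of helix-loop-helix factors, counts as a repressor by that list alone, and its effect on Pparg was not tested. Its level was 9.16 ± 0.853 CPM in shEmpty, 14.8 ± 1.36 in shJmjd1a, 9.13 ± 0.886 with LacZ, 6.02 ± 1.01 with WT and 13.5 ± 0.75 with Mut. Id2 and Klf2 were the 2 lower with WT, and Klf2 lost its call in DESeq2 (−0.47, adjusted p = 0.115). Over all 28 regulators, Kdm3a among them, 6 were lower and 10 higher in the knockdown, beside 23.9% and 22.3% of all genes. The counts were 4 and 6 with WT (4.52% and 4.98% of all genes), and 4 and 12 with Mut against WT (11.7% and 12.1%). With Mut against LacZ they were 1 and 3 (4.46% and 4.78%).

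Genes with the level pattern most like each receptor were found by Pearson's r of log2 CPM over the 15 libraries, among 10222 genes. The libraries share groups, so these are descriptions of a common pattern. The 5 nearest to Pparg were Gpat3, an enzyme of triglyceride synthesis (r = 0.989), Ddx21, an RNA helicase (0.985), Slc5a6, a vitamin transporter (0.983), Mapk6, a kinase (0.982) and Cidec (0.982). Gpat3 averaged 108 CPM in shEmpty, 44.5 in shJmjd1a, 56.2 with LacZ, 75.6 with WT and 32.7 with Mut. The 5 nearest to Ppard, with Pdhx first (0.960), included Fnta, Srm, Phb and Mdh2. Those nearest to Rxra were Fgfr3 (0.979), Scd2 (0.973), Ltbp2, Entpd6 and Ldhb, and Scd2, a fatty acid desaturase, averaged 1807 CPM in shEmpty and 1200 to 1294 CPM in the other groups. Those nearest to Rxrb were less close, with Ceacam1 first (0.858), then Atxn2l, Map11, a gene without a symbol in the table used, and Ric8a. Between the receptors themselves, r was 0.81 for Pparg and Ppard, 0.66 for Pparg and Rxra, 0.84 for Ppard and Rxra, and between −0.07 and 0.09 for Rxrb with each of the others.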

How the data were processed

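Poly(A) RNA from 3T3-L1 lines was sequenced. The authors processed the reads with fastp, HISAT2 and featureCounts on mm9, per the labels, and deposited raw counts per gene. The strand setting of the counting is not given in the sources used here. The library kit is NEBNext Ultra in the labels, but a directional kit of that series in the study's methods.

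Counts were joined by Entrez Gene number, and 24191 of 26301 numbers had a symbol in a RefSeq table of GRCm38.p6. Replicate libraries of a group differed beyond sampling noise (chi-square per degree of freedom 2.07 to 5.44). The shEmpty and shJmjd1a libraries, and the 9 rescue libraries, were fitted apart with edgeR 4.0.16 (R 4.3.3, limma 3.58.1, statmod 1.5.0), TMM, a filterByExpr minimum count of 10, robust quasi-likelihood tests and a threshold of 0.05. This left 12272 and 12557 genes. All 15 libraries were fitted together for the order of groups (12758 genes). Levels are CPM under TMM over 15 libraries, and RPKM divides them by the summed exon length of GENCODE M1. Alternatives were DESeq2 1.42.0, other size factors, filters and sets of libraries. The tests were checked on simulated data.

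The receptors and lists were chosen with earlier results of these data known. Named genes are, per list and comparison, up to 2 called lower and 2 higher with the largest changes, among genes averaging 5 CPM or more whose groups did not overlap. The 5 genes whose log2 CPM correlated best with each receptor over the 15 libraries were named too. Hmgcs1, Rara and Abhd5 were added after their values were seen, and 1 gene that the rule names is not reported here.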

Additional observations from a re-analysis of the deposited data

How the results depend on the processing

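Of 220 values for the 4 receptor genes tested under an alternative, 219 kept their side of the threshold. No call changed direction. Values that were not called could change sign, and Rxra with WT against LacZ ranged from −0.01 to 0.03 when 1 library was left out. Over the leave-one-out fits, Pparg ranged from −0.90 to −0.85 in the knockdown, from 0.33 to 0.40 with WT against LacZ, from −0.89 to −0.81 with Mut against WT and from −0.53 to −0.45 with Mut against LacZ. Ppard with Mut against WT ranged from −0.19 to −0.08, and the value −0.19, without Mut replicate 3, passed the threshold (adjusted p = 0.0346), so that 1 to 2 receptor genes were called lower there. Leaving out a library moved the genes called with Mut against LacZ to between 326 and 497 lower and between 348 and 549 higher. The lowest of both came without Mut replicate 1, and without LacZ replicate 3 there were 380 higher. The difference in the share of Pparg between WT and LacZ was 4.86 percentage points with counts not divided by length, and that of Rxra in the knockdown was −3.73 without length and −5.71 with the longest transcript. The share of Pparg itself ran from 41.9% to 55.4% without length and from 55.6% to 68.3% with the longest transcript. Of the other named genes, 1567 values kept their call and 63 lost it, among them Hdac3 with Mut against WT, and Klf2 and Pnpla2 with WT against LacZ. Of 600 counts of listed genes, 574 stayed within 1.5 times, and DESeq2 called 3 coregulators lower in the knockdown in place of 5, 3 Pparg activators higher with WT in place of 5, and 1 in place of 2 for the RXR partners and Pparg repressors lower with WT and the coregulators higher with WT over LacZ and with Mut over WT. The cause was not tested. Library scaling moved the median of all genes by at most 0.011. Same-numbered replicates did not deviate together (r from −0.044 to 0.054, under the 0.1 asked of a pair), and a fit with a replicate block gave Pparg −0.89, 0.36, −0.85 and −0.49 in the 4 comparisons and moved no call of a receptor gene. Depth limits Ppara and Rxrg.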

Other observations

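Of the genes that free fatty acids, the source of many PPAR ligands, from stored triglyceride, 3 were tested, 2 lipases and Abhd5, which activates one of them. All 3 were lower in the knockdown and with Mut against WT, and the 2 lipases were higher with WT over LacZ and lower with Mut against LacZ. Over all genes, 23.9% were lower and 22.3% higher in the knockdown, and 4.52% and 4.98% with WT over LacZ. With Mut the shares were 11.7% and 12.1% against WT, and 4.46% and 4.78% against LacZ. Lipe, the hormone-sensitive lipase, averaged 241 ± 4 CPM in shEmpty, 79.5 ± 2.82 in shJmjd1a, 92.5 ± 4.33 with LacZ, 138 ± 7.86 with WT and 76.2 ± 1.58 with Mut (knockdown −1.61 ± 0.047, adjusted p = 6.77e-21). Pnpla2, the first lipase of the chain, fell in the knockdown as well (−1.61 ± 0.057, adjusted p = 4.37e-19). Its rise with WT over LacZ was small (0.19 ± 0.063, adjusted p = 0.0417). That call was lost in DESeq2 (0.20, adjusted p = 0.0913) and, in edgeR, without WT replicate 1 (0.15, adjusted p = 0.222). Of 6 prostaglandin and oxidase enzymes, 1 was lower and 4 were higher in the knockdown, 0 were lower and 0 higher with WT, 1 was lower and 1 higher with Mut against WT, and 0 were lower and 1 higher with Mut against LacZ. The 0 counts, from edgeR, were also 0 in DESeq2, and each was 1 at an unadjusted p under 0.05. Ptgs2, the inducible cyclooxygenase, rose from 2.45 ± 0.564 to 12 ± 1.22 CPM (2.31 ± 0.191, adjusted p = 5.43e-11), and it was 9.9 ± 1.68 CPM with LacZ, 8.81 ± 0.406 with WT and 10.4 ± 0.836 with Mut. Ptgis, the prostacyclin synthase, rose (1.17 ± 0.136, adjusted p = 3.88e-08).

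Genes that handle vitamin A, the source of the retinoic acids that bind the RXR and retinoic acid receptors, had 4 of 10 lower and 4 higher in the knockdown, where 23.9% of all genes were lower and 22.3% higher. With WT against LacZ 2 of 11 were lower and 2 higher, beside 4.52% and 4.98% of all genes. With Mut the counts were 4 and 3 against WT (11.7% and 12.1%), and 1 and 1 against LacZ (4.46% and 4.78%). Rdh12, a retinol dehydrogenase, had group means in the order of Pparg, at 14.8 ± 0.947 CPM in shEmpty, 4.12 ± 0.65 in shJmjd1a, 5.34 ± 1.07 with LacZ, 9.88 ± 1.02 with WT and 3.92 ± 0.332 with Mut. The low end was not resolved, since Mut and LacZ did not differ past the threshold (−0.44 ± 0.210, adjusted p = 0.214). Adh7, an alcohol dehydrogenase that oxidizes retinol, had the reverse order among the rescue lines, at 97.2 ± 1.82 CPM with LacZ, 55.6 ± 1.63 with WT and 120 ± 1.9 with Mut (Mut against WT 1.11 ± 0.053, adjusted p = 1.91e-21).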
